A study of Mus musculus with 20 samples.

Results

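The genes of cholesterol and fatty acid synthesis examined here comprised 31 genes, chosen by symbol from a list fixed by name and not by any measured value, out of 22048 genes in each count table. They fell into 4 roles. The sterol synthesis genes were Acat2, Hmgcs1, Mvk, Pmvk, Mvd, Idi1, Fdps, Fdft1, Sqle, Lss, Cyp51, Nsdhl, Hsd17b7, Sc5d and Dhcr7 (15 genes). The fatty acid genes were Acly, Acaca, Fasn, Scd1, Scd2, Elovl5, Elovl6, Fads1 and Fads2 (9 genes). The regulatory genes were Srebf1, Srebf2, Scap, Insig1 and Insig2 (5 genes), and the sterol transport genes were Stard4 and Abca1 (2 genes).

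RNA was sequenced from arcuate nuclei (ARC), a hypothalamic region that senses hormones and controls feeding, which were isolated by laser capture microdissection from male C57BL6/J mice. The labels give the mice as 10 weeks old, with weeks of acclimatisation and baseline measurement before treatment in the study's methods. All received ethanol at 1% in their drinking water, either alone (vehicle) or with corticosterone (Cort) at 75 µg/ml. Exposure lasted 2 days in one dataset and 4 weeks in the other, with 5 vehicle and 5 Cort samples in each. Every mouse of the 4 week dataset, vehicle and Cort alike, was also fasted for 16 h and then refed for 24 h, and its brain was cut in thinner sections, captured on other slides and sequenced on another instrument, so that the length of exposure cannot be told apart from these differences. The study left out 2 vehicle samples and 1 Cort sample per dataset as outliers in a principal component analysis (C07, C09 and C08 at 2 days, C01, C05 and C06 at 4 weeks), which leaves 3 vehicle and 4 Cort samples.

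Total counts per sample were 2487063 to 5748223 at 2 days and 1065776 to 5196364 at 4 weeks. The summed level of the ARC neuron markers Agrp, Npy and Pomc was 665 to 1027 CPM, counts per 1000000, in kept vehicle samples at 2 days and 663 to 1047 CPM at 4 weeks. These defining markers of the ARC were thus detected in both datasets. Glia were present as well, with astrocyte markers summing to 6140 to 6683 CPM and to 3982 to 4032 CPM in the same samples. In such bulk tissue, fewer cells of a type and less RNA per cell cannot be told apart. P-values set the difference between groups against the spread between these samples.

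Cells build cholesterol from acetyl-CoA through mevalonate and squalene, and fatty acids from the same precursor through malonyl-CoA. Both routes are switched on by the SREBP transcription factors (encoded by Srebf1 and Srebf2), which SCAP escorts from the endoplasmic reticulum to the Golgi when sterols are low, while the INSIG proteins hold SCAP back when sterols are plentiful. Because plasma cholesterol does not cross the blood-brain barrier, the brain makes its own, with astrocytes and the myelin-forming oligodendrocytes as main producers. Glucocorticoids such as Cort are known to promote fat synthesis in liver and adipose tissue.

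SREBPs bind short sterol regulatory elements in promoters, so the promoter windows of the genes were searched for the core CACCCCAC on both strands. Windows from RefSeq (GRCm38.p6), each reaching from 250 bases before to 50 bases after a start site, were found for 24 of the 31 genes, as 32 windows. The core stood in windows of Hmgcs1 and Acat2, that is in 6.25% of the 32, beside 2.87% of all 32851 windows of the table. The letters CCAAT, bound by NF-Y, were in 59.4% of the 32 and 37.4% of all windows. The GC box GGGCGG was in 71.9% and 35.7%, and AGAACA, one arm of a glucocorticoid response element, in 25.0% and 19.0%. Matches of CCAAT and of the GC box can share letters, and a match is a description of the letters and not of binding. The window of Hmgcs1, which encodes the synthase acting just before mevalonate is made, held all 4 motifs and is shown as an example picked after its values were seen. It covers the 250 bases before the start site at chr13:119690101-119690350 (plus strand), with the 4 motifs in capitals.
Hmgcs1 promoter: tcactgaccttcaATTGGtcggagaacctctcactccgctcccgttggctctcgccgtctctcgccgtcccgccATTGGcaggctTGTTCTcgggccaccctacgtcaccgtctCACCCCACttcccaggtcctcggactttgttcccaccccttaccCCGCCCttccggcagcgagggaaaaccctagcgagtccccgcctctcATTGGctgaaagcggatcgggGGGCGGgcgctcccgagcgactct

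In vehicle samples the stearoyl-CoA desaturases Scd2 and Scd1 were the most abundant of the 31 transcripts per length in both datasets. Levels were compared between genes as RPKM, which is CPM per kilobase of exon. At 2 days Scd2, the stearoyl-CoA desaturase of brain, was at 363 ± 15.7 RPKM (SD, n = 3). It was followed by Scd1, its paralog, at 105 ± 9.87 RPKM and by Fads1, the delta-5 desaturase of polyunsaturated fatty acids, at 68.4 ± 6.27 RPKM. At 4 weeks the same measure gave 184 ± 16.2 RPKM for Scd2, 74.0 ± 19.1 RPKM for Scd1 and 44.8 ± 13.96 RPKM for Elovl5, an elongase of polyunsaturated fatty acids (SD, n = 3). Scd2 alone made up 41.2% ± 0.953 of the summed CPM of the 31 genes in vehicle samples at 2 days and 27.8% ± 3.001 at 4 weeks (SD, n = 3), and the 31 genes together 0.481% ± 0.0131 and 0.363% ± 0.0368 of all counts. Neighbours in the order were often closer than their spread. At 2 days Fads2, the delta-6 desaturase, at 40.6 ± 7.94 RPKM and Elovl5 at 39.2 ± 3.57 RPKM lay within 1 SD of each other.

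**Figure D1:**
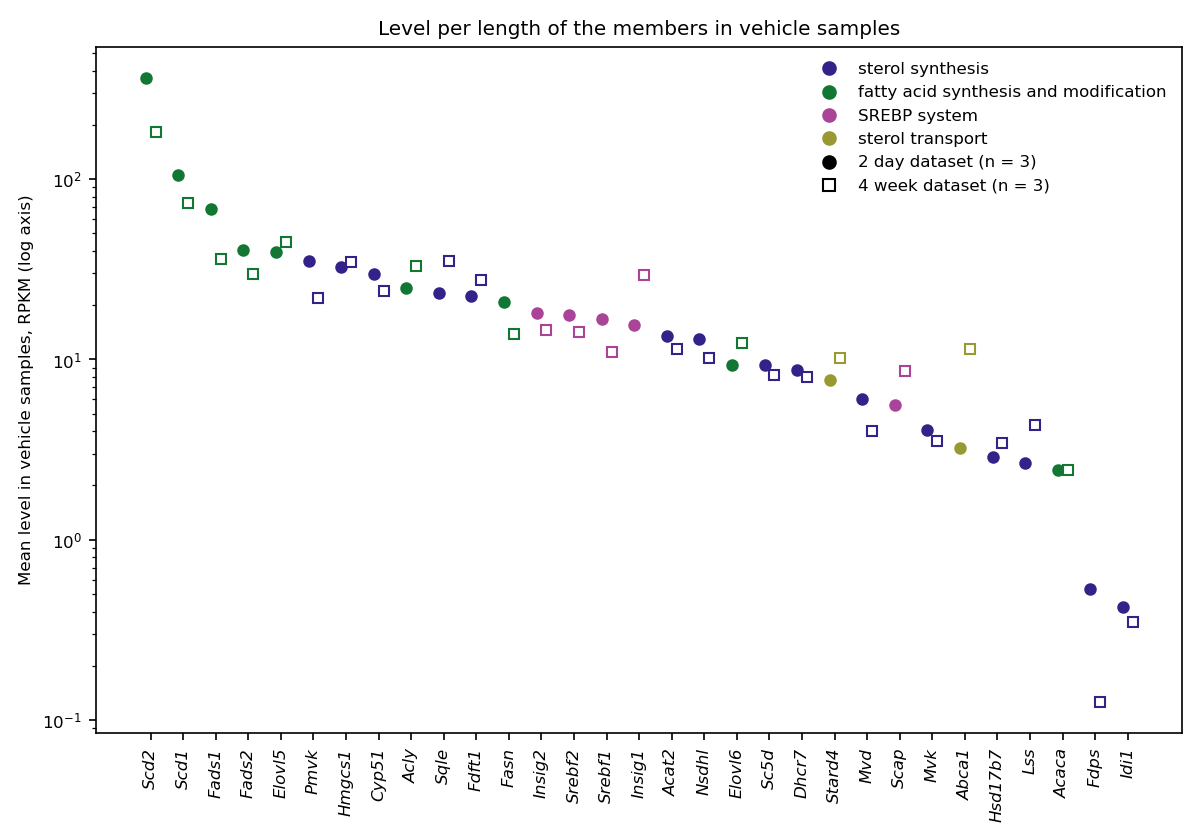
Mean RPKM of each gene (log axis) in the 3 kept vehicle samples of the 2 day dataset (filled circles) and of the 4 week dataset (open squares), coloured by role. Scd2 was highest in both at 363 and 184 RPKM, while Fdps and Idi1 lay below 1 RPKM in both.

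At the other end, 2 enzymes of isoprenoid synthesis were close to the detection floor. Idi1, the isopentenyl diphosphate isomerase, had 0 to 13 counts in the 7 kept samples at 2 days and 1 to 33 counts at 4 weeks. Fdps, which makes farnesyl diphosphate, had 2 to 15 counts and 1 to 11 counts. At most 3 counts were found for Idi1 in 3 of 7 kept samples at 2 days and in 3 of 7 at 4 weeks, and for Fdps in 2 of 7 and in 5 of 7. Both genes missed the filter on low counts in both datasets, so that 29 of the 31 genes were tested in each comparison. Of the 50-base stretches in their GENCODE M21 transcripts, 25.3% (Idi1) and 26.2% (Fdps) also occur in transcripts of other genes. The corresponding share was 39.1% for Acat2 (cytosolic thiolase, shared with Acat3), 30.4% for Acaca (acetyl-CoA carboxylase, mainly shared with Gm5182), 26.5% for Fdft1 (squalene synthase, shared with Ctsb and Gm6781) and at most 11.6% for the others, and how reads from such stretches were counted is not stated.

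The replicates of the 2 datasets differed in spread. Over the kept vehicle samples the coefficient of variation of the 29 genes had a median of 13.3% at 2 days, beside 25.3% for all 12309 genes tested, and of 41.8% at 4 weeks, beside 50.3% for all 11211 genes tested. The 29 genes were also the more abundant, with a median level of 60.2 CPM at 2 days beside 28.8 CPM for all genes tested.

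**Figure D2:**
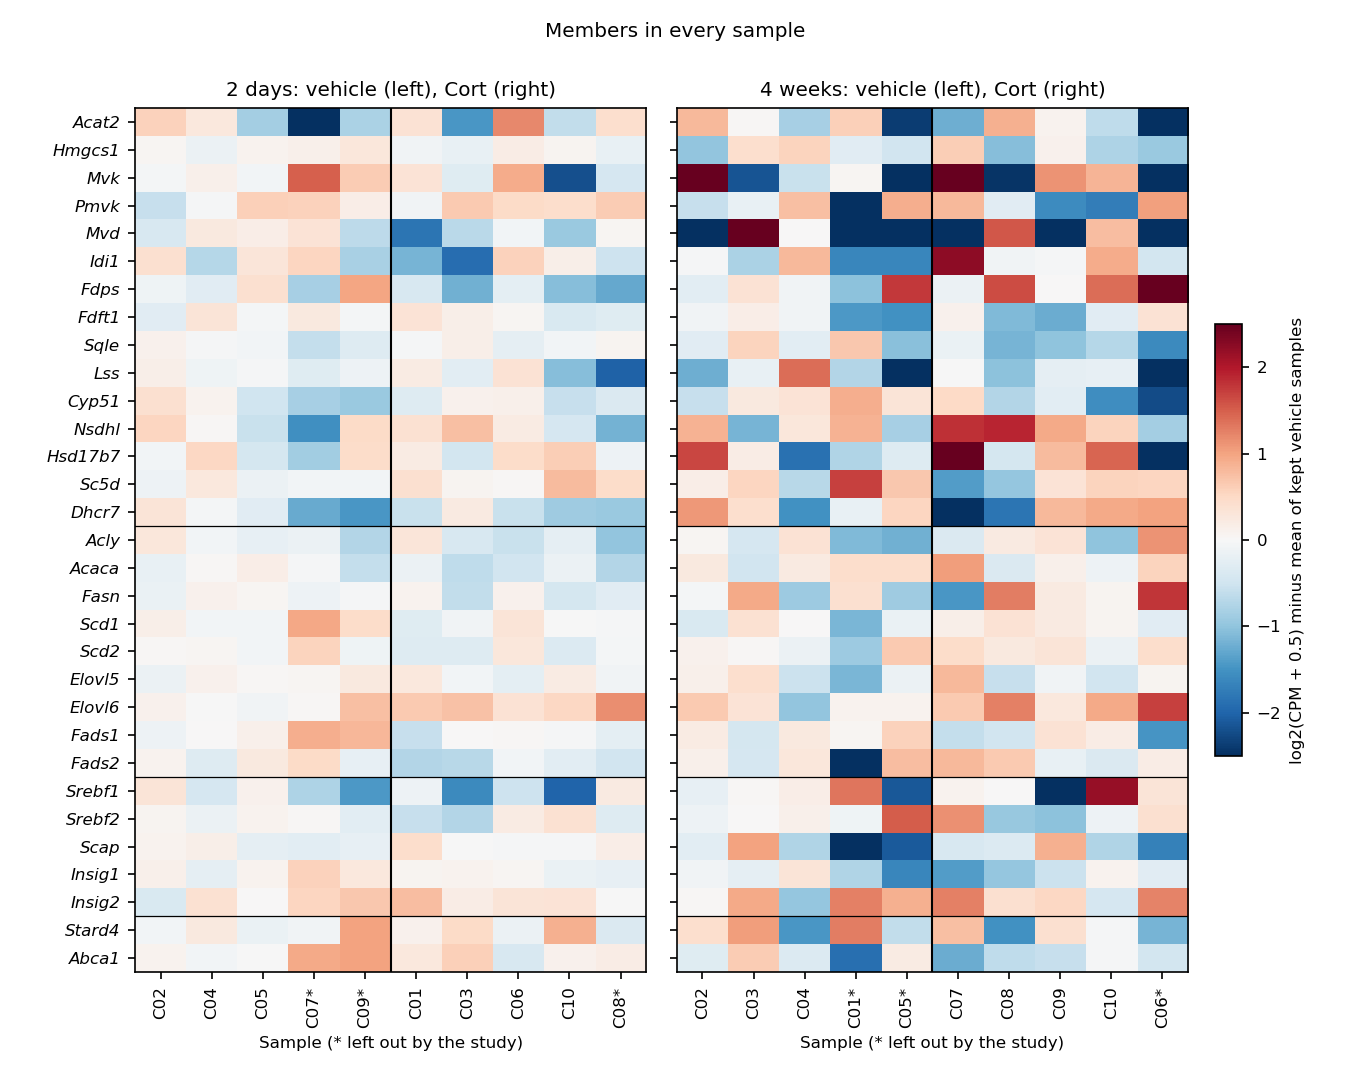
Each gene (rows, by role) in each of the 20 samples, as log2(CPM + 0.5) minus the mean of the 3 kept vehicle samples of its dataset, with samples left out by the study marked with an asterisk. The 4 week samples vary more than the 2 day samples, and low genes such as Mvd and Mvk vary most.

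To ask whether Cort altered lipid synthesis in the ARC, the Cort and vehicle samples of a dataset were compared with the quasi-likelihood test of edgeR over all genes, taking the study's threshold of 0.1 for the Benjamini-Hochberg adjusted P (Padj). None of the 29 genes passed at 2 days, where 8 of 12309 genes did (0.065%), and none passed at 4 weeks, where 5 of 11211 genes did (0.0446%). DESeq2 on the same samples called none of the 29 either, beside 54 of 12309 genes at 2 days and 43 of 11211 at 4 weeks. At an unadjusted P below 0.05 there were 2 of 29 genes at 2 days, beside 5.97% of all genes tested, with Elovl6 higher and Srebf1 lower in Cort samples. At 4 weeks there were 0 of 29, beside 4.91% of all genes tested. Both edgeR shares are near those of all genes. DESeq2 gave 1 of 29 at 4 weeks, Sqle, beside 786 of 11211 genes tested.

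The sizes of the differences were small at 2 days. The median log2 difference (Cort minus vehicle) was 0.01 over the 29 genes and 0.02 over all genes tested, with 16 of the 29 above 0 and 13 below. The 95% interval of the difference lay within a change of 2-fold either way for 21 of the 29 genes, and within 1.5-fold for 9 of them, so that larger changes of these genes at 2 days lie outside their intervals. At 4 weeks the median was -0.15 over the 29 genes and 0.04 over all genes tested, with 12 above 0 and 17 below. There the interval lay within 2-fold for 5 of the 29 and within 4-fold for 21 of the 29, so changes of 2-fold in most of these genes were not detectable with these samples.

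**Figure D3:**
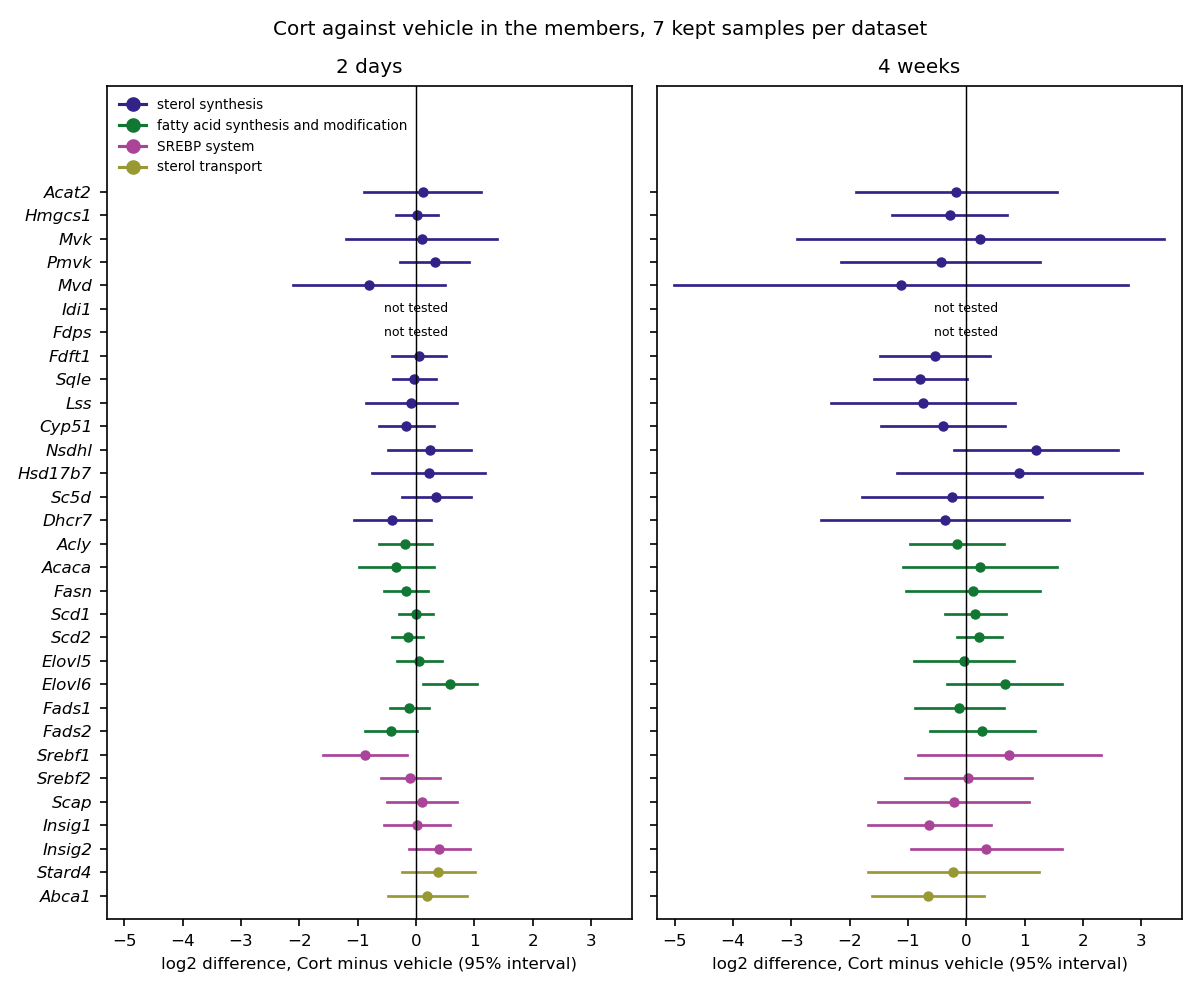
Fitted log2 difference of each gene between 4 Cort and 3 vehicle samples with its 95% interval at 2 days (left) and at 4 weeks (right), coloured by role. At 2 days the intervals of Elovl6 (above 0) and Srebf1 (below 0) exclude 0, and at 4 weeks every interval includes 0.

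Elovl6 (chr3:129532355-129638495, GRCm38), the elongase that takes palmitate to stearate and a known SREBP target, was higher in all 4 kept Cort samples than in any kept vehicle sample at 2 days. Its level was 64.7, 59.3 and 55.9 CPM in vehicle and 94.2, 99.7, 77.0 and 86.3 CPM in Cort samples. No other gene of the 29 separated the kept groups at 2 days, beside 6.63% of all genes tested. The fold was 1.499 with a 95% interval of 1.08 to 2.07 (log2 difference 0.58, SE 0.22, edgeR Padj = 0.745), and the exact 2-sided permutation test gave P = 0.0571, the smallest that 3 against 4 samples allow. Of the samples left out, the vehicle samples were at 61.3 and 101 CPM and the Cort sample at 135 CPM, so that the groups overlapped over all 10, by the vehicle sample at 101 CPM. Over all 10 samples the log2 difference was 0.54 (edgeR Padj = 0.926).

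At 4 weeks Elovl6 was at 113, 89.7 and 35.4 CPM in kept vehicle samples and at 112, 171, 85.0 and 137 CPM in kept Cort samples. The groups overlapped there, with a log2 difference of 0.66 (SE 0.46, 95% interval -0.32 to 1.64, edgeR Padj = 0.99). The vehicle samples left out were at 75.3 and 75.5 CPM and the Cort sample left out at 234 CPM, the highest of the 10. Over all 10 samples the difference was 0.91 (edgeR Padj = 0.991), and the exact permutation test over 5 against 5 samples gave P = 0.0397 at 4 weeks and also P = 0.0397 at 2 days, before any adjustment for the number of genes. Elovl6 was in the qRT-PCR panel of the study, which was drawn from the RNA-seq results of the same 2 day dataset, so its choice was not independent of these values. The primer pair of that panel is shown because it marks the part of the transcript that was assayed.
Elovl6 forward: agaggcgcagagaacacgta
Elovl6 reverse: ggatggcttcgttctcgttg
Both match 2 Elovl6 transcripts of GENCODE M21, where they span 112 bases, and no transcript of another gene in this arrangement.

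Srebf1 (chr11:60199089-60222581), which encodes SREBP-1, the activator of the fatty acid genes, was lower in Cort samples at 2 days by the fit, but its groups overlapped. It was at 115, 69.0 and 100.04 CPM in kept vehicle samples and at 84.3, 30.3, 65.0 and 22.7 CPM in kept Cort samples. The fold was 0.544 with a 95% interval of 0.3299 to 0.897 (log2 difference -0.88, SE 0.35, edgeR Padj = 0.754). The samples left out ran the other way, with vehicle at 53.9 and 33.9 CPM and Cort at 108 CPM. Over all 10 samples the log2 difference was -0.24 (edgeR Padj = 0.981), so the size of the difference rests on which samples enter.

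At 4 weeks Srebf1 was at 53.4, 63.5 and 69.9 CPM in kept vehicle and at 65.4, 62.6, 9.79 and 280.0 CPM in kept Cort samples. The Cort group held both the lowest and the highest value of the 7. The log2 difference was 0.74 (SE 0.74, 95% interval -0.83 to 2.31, edgeR Padj = 0.99), and without the Cort sample at 280.0 CPM (C10) it was -0.45. The vehicle samples left out, at 158 and 13.8 CPM, and the Cort sample left out, at 77.8 CPM, fell inside that range.

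Srebf2 (chr15:82147181-82205379), which encodes SREBP-2, the activator of the sterol genes, was at 132, 113 and 134 CPM in kept vehicle and at 84.5, 75.8, 145 and 165 CPM in kept Cort samples at 2 days. Cort samples lay on both sides of the vehicle samples, and the log2 difference was -0.09 (SE 0.24, edgeR Padj = 0.973). At 4 weeks it was at 93.0, 103 and 111 CPM in vehicle and at 226, 52.4, 49.99 and 93.4 CPM in Cort samples, again on both sides, with a log2 difference of 0.04 (SE 0.51, edgeR Padj = 0.996). The samples left out were at 129 and 105 CPM (vehicle) and 101 CPM (Cort) at 2 days, and at 94.5 and 293 CPM (vehicle) and 135 CPM (Cort) at 4 weeks.

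Scap (chr9:110333288-110384950), the escort of both SREBPs, was at 44.0, 45.7 and 35.4 CPM in kept vehicle and at 56.2, 41.1, 40.4 and 40.6 CPM in kept Cort samples at 2 days. Groups overlapped, with a log2 difference of 0.11 (SE 0.29, 95% interval -0.50 to 0.71). At 4 weeks it was at 46.7, 113 and 33.1 CPM in vehicle and at 42.5, 44.3, 104 and 32.9 CPM in Cort samples, with 1 high sample in each group and a log2 difference of -0.22 (SE 0.61, 95% interval -1.51 to 1.08). Its exons share 13.2% of their length with an overlapping gene, 5830462I19Rik.

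Insig1 (chr5:28071363-28078662), itself an SREBP target and for that reason often read as a gauge of SREBP activity, hardly differed at 2 days. It was at 51.7, 40.7 and 50.8 CPM in kept vehicle and at 50.01, 50.5, 49.5 and 42.6 CPM in kept Cort samples. The log2 difference was 0.02 (SE 0.27) with a 95% interval of 0.688-fold to 1.499-fold. At 4 weeks Insig1 was at 84.2, 76.4 and 113 CPM in vehicle and at 34.0, 45.7, 61.8 and 94.99 CPM in Cort samples. The 3 lowest values were Cort samples, the groups overlapped by the Cort sample at 94.99 CPM, and the log2 difference was -0.63 (SE 0.50, 95% interval -1.69 to 0.42, edgeR Padj = 0.99). The vehicle samples left out at 4 weeks were below every kept vehicle sample, at 53.2 and 28.5 CPM, and over all 10 samples the difference was -0.21 (edgeR Padj = 0.993).

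Insig2 (chr1:121304353-121332589), the second SCAP anchor, was at 46.5, 79.3 and 61.8 CPM in kept vehicle and at 105, 69.4, 76.4 and 78.0 CPM in kept Cort samples at 2 days. Groups overlapped by the vehicle sample at 79.3 CPM, and the log2 difference was 0.40 (SE 0.25, edgeR Padj = 0.889). With the vehicle samples left out, at 88.5 and 97.5 CPM, and the Cort sample left out, at 61.0 CPM, it was 0.07. At 4 weeks Insig2 was at 44.6, 84.4 and 21.9 CPM in vehicle and at 105, 57.6, 62.9 and 32.6 CPM in Cort samples, which overlapped (log2 difference 0.34, SE 0.61).

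Among the sterol synthesis genes, Sqle (chr15:59315077-59331192), the squalene epoxidase that catalyses a rate-limiting oxygenation, was lower in Cort samples at 4 weeks without passing either threshold. It was at 153, 276 and 156 CPM in kept vehicle and at 166, 83.1, 92.8 and 114 CPM in kept Cort samples. In 3 of 4 Cort samples it was below every kept vehicle sample, and the Cort sample at 166 CPM (C07) overlapped. The fold was 0.580 with a 95% interval of 0.334 to 1.01 (log2 difference -0.79, SE 0.37, edgeR Padj = 0.99), and over all 10 samples the log2 difference was -0.94 (edgeR Padj = 0.991), with vehicle samples left out at 301 and 90.1 CPM and the Cort sample left out at 62.0 CPM. Without the vehicle sample at 276 CPM (C03) the difference over the other kept samples was -0.44. At 2 days Sqle was at 139, 126 and 123 CPM in vehicle and at 127, 144, 110.2 and 124 CPM in Cort samples, whose ranges overlapped, with a log2 difference of -0.03 (95% interval -0.40 to 0.35).

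The other enzymes of the sterol route did not pass a threshold in either dataset. At 2 days the 13 sterol genes tested had a median log2 difference of 0.05, with 8 above 0 and 5 below. Hmgcs1 was at 149.97 ± 12.7 CPM in vehicle (SD, n = 3) and 150.4 ± 17.8 CPM in Cort samples (SD, n = 4), and Fdft1 at 95.3 ± 20.5 and 98.2 ± 19.4 CPM. Cyp51, the lanosterol demethylase, was at 131 ± 39.0 and 116 ± 26.9 CPM. Lss, the lanosterol synthase, was at 28.9 ± 2.72 and 27.0 ± 10.5 CPM, and Dhcr7, which makes the last reduction to cholesterol, at 50.8 ± 11.2 and 38.2 ± 13.8 CPM. For Acat2, Mvk and Pmvk (mevalonate and phosphomevalonate kinase), Mvd (mevalonate diphosphate decarboxylase), Nsdhl and Hsd17b7 (demethylation at carbon 4 of the sterol ring) and Sc5d (sterol desaturase), the groups likewise overlapped.

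At 4 weeks the 13 sterol genes had a median log2 difference of -0.36, with 3 above 0 and 10 below, beside 51.9% of all genes tested above 0. Over all 10 samples, where 12 were tested, the median was -0.14, with 4 above 0 and 8 below. Fdft1 was at 116 ± 12.4 CPM in vehicle (SD, n = 3) and 80.7 ± 35.9 CPM in Cort samples (SD, n = 4), Cyp51 at 106 ± 33.3 and 81.2 ± 46.6 CPM, and Lss at 46.5 ± 41.6 and 28.1 ± 7.63 CPM. The largest difference upwards was that of Nsdhl, at 46.0, 10.9 and 30.4 CPM in vehicle and at 89.5, 94.3, 48.4 and 36.6 CPM in Cort samples (log2 difference 1.19, SE 0.66, edgeR Padj = 0.99). The largest downwards was that of Mvd, at -1.12 (SE 1.83), where 3 of 7 kept samples had 0 to 3 counts. The summed level of the sterol genes was 717 to 956 CPM in vehicle and 506 to 977 CPM in Cort samples.

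In the kept samples the fatty acid genes other than Elovl6 showed smaller differences. Of all 9, 3 were above 0 and 6 below at 2 days, and 6 above and 3 below at 4 weeks. The shares of all genes tested above 0 were 52.1% and 51.9%. Over all 10 samples 1 of 9 was above 0 at 2 days and 8 of 9 at 4 weeks, beside 48.1% and 50.5% of all genes tested. Acaca (chr11:84129672-84401651), the carboxylase that makes malonyl-CoA and sets the rate of the route, was at 36.3, 42.0 and 46.6 CPM in kept vehicle and at 37.4, 26.6, 29.6 and 37.4 CPM in kept Cort samples at 2 days. Of these Cort samples 2 lay below the vehicle samples and 2 within them (log2 difference -0.34, SE 0.31, edgeR Padj = 0.933). At 4 weeks it was at 47.7, 28.9 and 47.5 CPM in vehicle and at 84.2, 31.2, 44.3 and 36.9 CPM in Cort samples (log2 difference 0.24, SE 0.62). Acly, the citrate lyase that supplies acetyl-CoA, was at 132 ± 23.5 and 115 ± 32.2 CPM at 2 days and at 173 ± 45.3 and 157 ± 60.3 CPM at 4 weeks. Fasn, the fatty acid synthase, was at 229 ± 23.0 and 201 ± 49.8 CPM at 2 days, and at 151 ± 94.7 and 165 ± 115 CPM at 4 weeks (vehicle then Cort, SD, n = 3 and 4).

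Of the desaturases, Scd2 (chr19:44293674-44306864) was at 2027, 2041 and 1885 CPM in kept vehicle and at 1578, 1589, 2413 and 1569 CPM in kept Cort samples at 2 days. In 3 of 4 Cort samples it was below the vehicle range and in the other, C06, above it, with a log2 difference of -0.14 (SE 0.13). At 4 weeks it was at 1081, 1023 and 908 CPM in vehicle and at 1377, 1186, 1254 and 911 CPM in Cort samples, where 3 of 4 Cort samples lay above the vehicle range (log2 difference 0.22, SE 0.18). Scd1 was at 513 ± 48.3 and 510 ± 93.3 CPM at 2 days and at 362 ± 93.3 and 407 ± 35.1 CPM at 4 weeks (vehicle then Cort). Elovl5 was at 138 ± 12.6 and 143 ± 23.4 CPM, and at 158 ± 49.2 and 155 ± 77.5 CPM.

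Fads1 and Fads2, neighbours on chromosome 19 that both act on polyunsaturated fatty acids, were lower in Cort samples at 2 days by unequal amounts. The difference of Fads1 depended on the samples left out. It was at 299, 329.6 and 359 CPM in kept vehicle and at 220.0, 331, 336 and 323 CPM in kept Cort samples (log2 difference -0.11, SE 0.16), but at 613 and 582 CPM in the vehicle samples left out and 276 CPM in the Cort sample left out. Over all 10 samples its difference was -0.54 (edgeR Padj = 0.91). Fads2 was at 139.6, 105 and 157 CPM in kept vehicle and at 78.9, 81.5, 125 and 109.8 CPM in kept Cort samples, with a log2 difference of -0.43 (SE 0.21, edgeR Padj = 0.853) and a similar one of -0.50 over all 10 samples (edgeR Padj = 0.923). Both genes with Elovl6 made 3 of 29 genes with unadjusted P below 0.05 over all 10 samples at 2 days, beside 5.28% of all genes tested. At 4 weeks there were 2 of 28 over all 10 samples, Sqle and Elovl6, beside 4.9%. No gene of the 31 had vehicle and Cort samples that did not overlap over all 10 samples, beside 0.801% of all genes tested at 2 days and 0.942% at 4 weeks, and none separated the kept groups at 4 weeks, beside 6.53%.

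**Figure D4:**
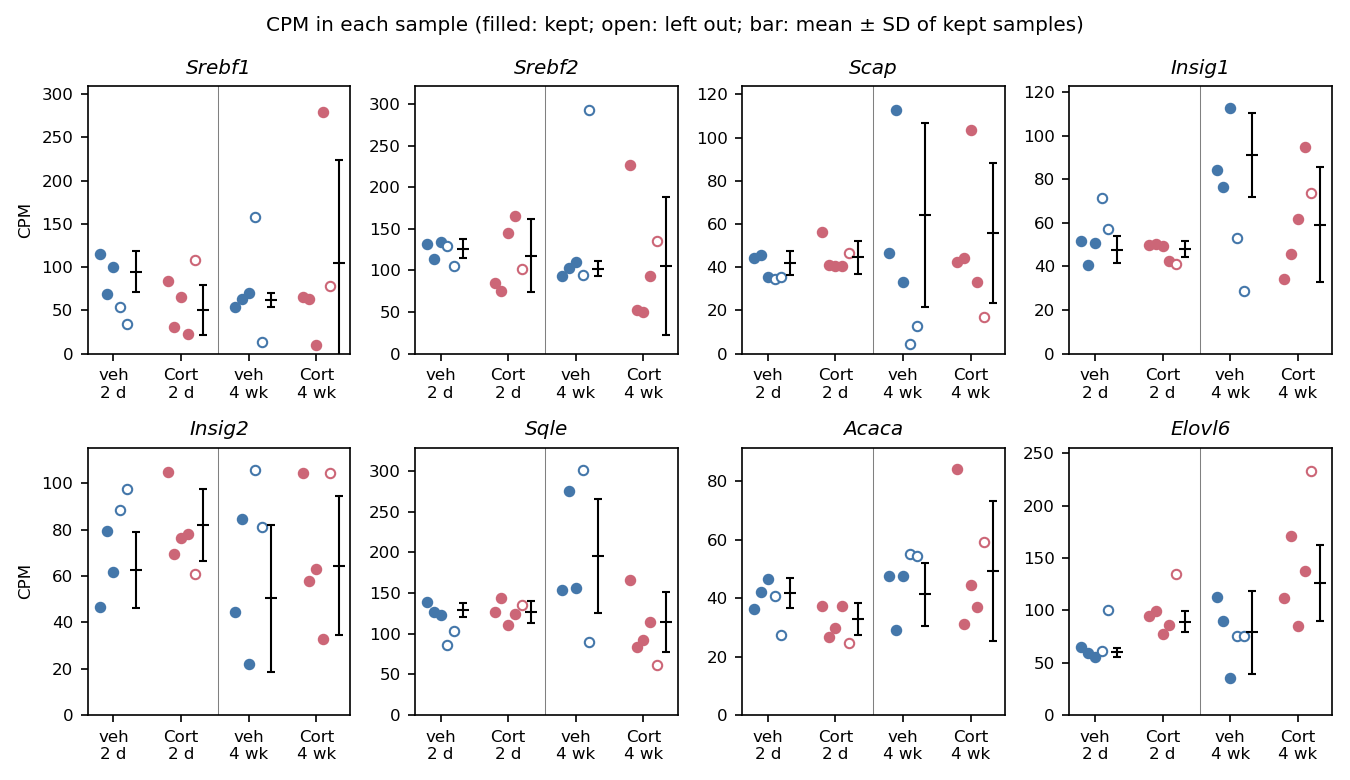
CPM of 8 genes in each sample of the 4 groups, with kept samples filled, samples left out open, and the mean ± SD of the kept samples as a bar. Elovl6 is the only one of the 8 whose kept Cort samples (77.0 to 99.7 CPM) lie above all kept vehicle samples (55.9 to 64.7 CPM) at 2 days, and Srebf1 at 4 weeks spans 9.79 to 280.0 CPM among kept Cort samples.

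Neither of the 2 sterol transport genes passed a threshold. Stard4, which carries cholesterol between membranes, was at 42.9 ± 6.64 and 55.9 ± 17.8 CPM at 2 days and at 56.8 ± 38.7 and 49.1 ± 26.0 CPM at 4 weeks (vehicle then Cort, SD, n = 3 and 4). Abca1, the exporter of cholesterol to lipoprotein particles, was at 33.3 ± 1.85 and 37.9 ± 10.6 CPM, and at 119 ± 49.5 and 76.2 ± 26.0 CPM.

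To ask whether Cort acted differently after 4 weeks than after 2 days, the difference between the Cort effects of both datasets was tested over the 14 kept samples. None of the 29 genes passed Padj below 0.1, beside 2 of 12777 genes (0.0157%), and none passed an unadjusted P below 0.05, beside 6.49% of all genes tested. The largest difference was that of Srebf1, 1.63 on the log2 scale (4 week effect minus 2 day effect, SE 0.92, edgeR Padj = 0.842). The smallest Padj was that of Sqle, at -0.75 (SE 0.40, edgeR Padj = 0.82). For Elovl6 it was 0.08 (SE 0.50, 95% interval -0.96 to 1.12), which leaves room for a change of about 2-fold either way.

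Other genes of the same pathway, from lists of 47 genes chosen by function, were counted in the same fits. At 2 days 44 of them were tested, none passed Padj below 0.1, and 2 had an unadjusted P below 0.05, beside 5.97% of all genes tested, both higher in Cort samples. Of the 44, 33 were above 0 and 11 below (75.0% above, beside 52.1% of all genes tested), with a median log2 difference of 0.09. Over all 10 samples 27 of 43 were above 0 (62.8%, beside 48.1% of all genes tested), with a median of 0.03. The 2 with an unadjusted P below 0.05 were Acss2 and Scd3. Acss2, the cytosolic acetyl-CoA synthetase, was at 10.2 ± 1.41 CPM in vehicle and 23.1 ± 5.98 CPM in Cort samples (log2 difference 1.20, SE 0.44, edgeR Padj = 0.701). Scd3, a further desaturase, was at 5.78 ± 1.98 and 18.02 ± 13.2 CPM (log2 difference 1.65, SE 0.64, edgeR Padj = 0.745). Of the 50-base transcript stretches of the far more abundant Scd1 and Scd2, 167 and 136 also occur in Scd3, and how such reads were counted is not stated. At 4 weeks 40 were tested, none passed Padj below 0.1, and 1 had an unadjusted P below 0.05, beside 4.91% of all genes tested. That 1 was Hacd3, a dehydratase of fatty acid elongation, at 170 ± 8.32 and 318 ± 139 CPM (log2 difference 0.89, SE 0.34, edgeR Padj = 0.99). Of the 40, 24 were above 0 and 16 below (60.0% above, beside 51.9% of all genes tested). Over all 10 samples at 4 weeks 27 of 39 were above 0 (69.2%, beside 50.5% of all genes tested). Over all 10 samples the difference of Acss2 was 0.39, that of Scd3 1.73 and that of Hacd3 0.14. All 3 were named after their values were seen.

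Summed markers of several cell types, not only those named above as cholesterol producers, differed between the kept groups alongside these values. At 2 days the 12 oligodendrocyte markers summed to 422 to 500.04 CPM in kept vehicle and 525 to 696 CPM in kept Cort samples, which did not overlap. Of the 11 tested, 9 were above 0, with a median log2 difference of 0.95. The vehicle samples left out summed to 571 and 782 CPM and the Cort sample left out to 888 CPM, so that the groups overlapped over all 10 samples, where 7 of 11 were above 0 with a median of 0.43. The 10 astrocyte markers summed to 6140 to 6683 and 5655 to 7710 CPM, which overlapped. At 4 weeks the oligodendrocyte sums overlapped, at 755 to 1093 CPM in kept vehicle and 512 to 1073 CPM in kept Cort samples. Of the 10 oligodendrocyte markers tested there, 3 were above 0 and 7 below, with a median log2 difference of -0.46. At 4 weeks the astrocyte markers summed to 3982 to 4032 CPM in vehicle and 4415 to 6078 CPM in Cort samples and the 10 tanycyte markers (tanycytes line the third ventricle beside the ARC) to 1248 to 1647 and 523 to 1202 CPM, neither of which overlapped. The 10 general neuron markers summed to 3285 to 3567 CPM in vehicle and 3596 to 4146 CPM in Cort samples at 4 weeks and did not overlap either, though 4 of them were above 0 and 6 below by the fit. The summed ARC neuron markers also separated the kept groups, at 665 to 1027 CPM in vehicle and 1198 to 1625 CPM in Cort samples at 2 days, and at 663 to 1047 and 288 to 610 CPM at 4 weeks. Most of these separations were lost over all 10 samples. The ARC neuron sums then overlapped at 2 days (665 to 1625 and 1198 to 2311 CPM) and at 4 weeks (203 to 1047 and 288 to 610 CPM). So did the 4 week sums of astrocyte markers (2860 to 5330 and 4415 to 6170 CPM) and general neuron markers (2770 to 4167 and 3596 to 4146 CPM). The tanycyte sums at 4 weeks stayed apart. At 2 days the kept tanycyte sums (386 to 510 and 324 to 538 CPM) and general neuron sums (4735 to 5076 and 4470 to 5092 CPM) overlapped. Sums of the 8 microglia markers and of the 8 endothelial and pericyte markers overlapped between the kept groups in both datasets. No marker of these lists was at 0 in every kept sample of a group. Vehicle sample C07, which was left out at 2 days and held the highest Scd1, Scd2 and Fads1, also had the highest astrocyte sum, 10656 CPM. The part of cell content in the differences of Elovl6, Sqle, Fads1 and the others was not tested. Of the glucocorticoid-induced genes, 9 of 10 were above 0 at 2 days (median log2 difference 0.76) and 8 of 9 at 4 weeks (median 1.22). The shares of all genes tested above 0 were 52.1% and 51.9%. By edgeR none of these genes passed Padj below 0.1 in the kept samples of either dataset. DESeq2 on the same samples called 2 of 10 at 2 days, beside 54 of 12309 genes tested. It called 0 of 9 at 4 weeks, beside 43 of 11211. Over all 10 samples edgeR called 1 of 10 at 2 days, beside 2 of 11983 genes tested. In the kept samples an unadjusted P below 0.05 by edgeR was reached by 4 of 10 and 1 of 9, beside 5.97% and 4.91% of all genes tested. The list was written with earlier results of these data known, so it is not an independent check of the treatment.

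**Figure D5:**
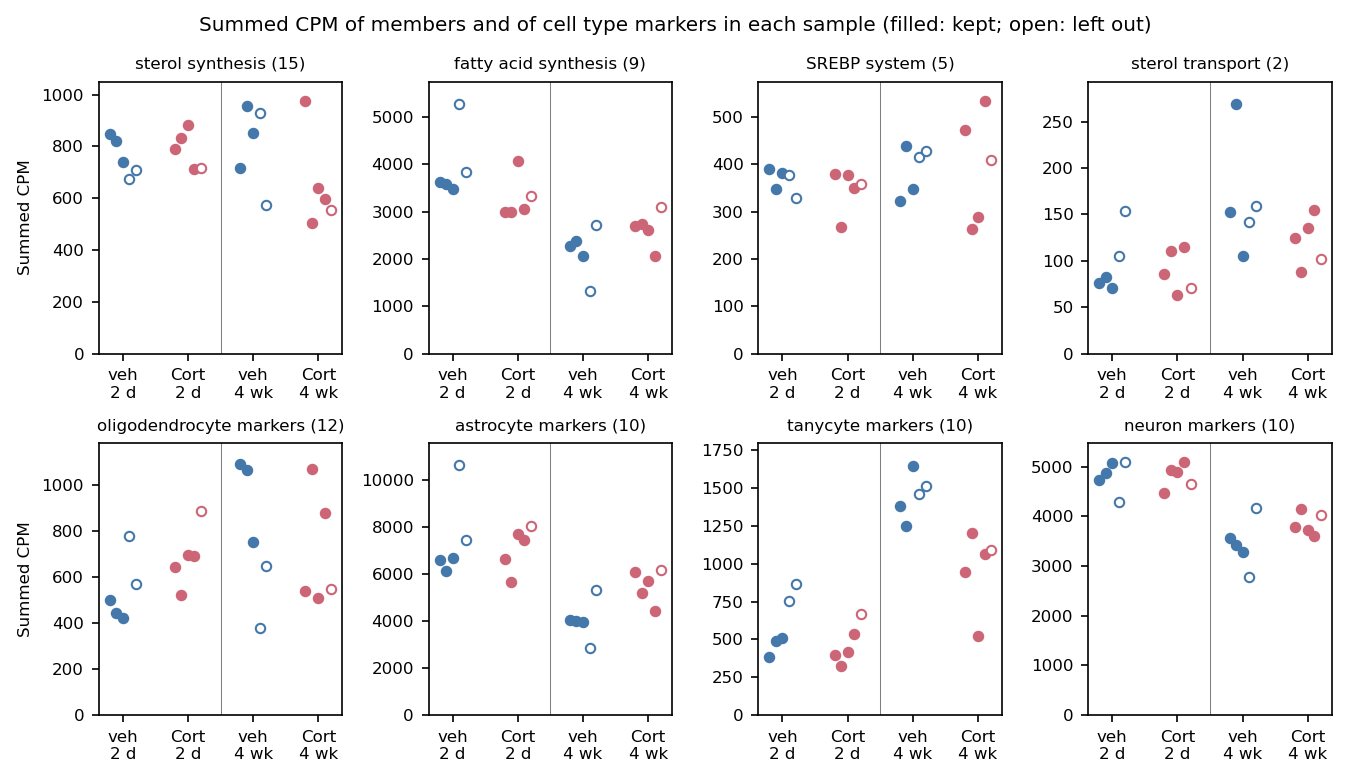
Summed CPM of the genes of each role (upper row) and of the markers of 4 cell types (lower row) in each sample of the 4 groups, with kept samples filled and samples left out open. The sums of all 4 roles overlap between kept vehicle and Cort samples in both datasets, whereas oligodendrocyte sums at 2 days (422 to 500.04 against 525 to 696 CPM) and tanycyte sums at 4 weeks (1248 to 1647 against 523 to 1202 CPM) do not.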

How the data were processed

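Each sample was one laser-captured arcuate nucleus. The authors mapped single-end reads to GRCm38 with Rsubread and deposited the raw count of each gene from featureCounts, whose handling of strand and of reads with several matches is not given in the sources used here. The signal column deposited by the authors, the mean of counts divided by DESeq2 size factors, was used only to check which samples they kept: it matched the mean over the 7 kept samples within 0.1% for 16068 of 16068 genes at 2 days and 15430 of 15430 at 4 weeks. The authors' per-sample normalized columns and their fold changes and p-values from DESeq2 were not used. Columns were assigned to groups by the study's list of libraries, and no column of another sample was found (0).

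Counts were filtered by filterByExpr, scaled by TMM and tested with edgeR 4.0.16 (quasi-likelihood, 2-sided, Benjamini-Hochberg over all genes) in R 4.3.3, with DESeq2 1.42.0 as an alternative. CPM are TMM-scaled over all 10 samples of a dataset, and RPKM divide CPM by the exon length of GENCODE M21, in which 21781 of 22048 genes were found. Summaries and figures were made in Python 3.11.15 (scipy 1.17.1, matplotlib 3.10.9). Exact permutation tests used log2(CPM + 0.5). At most 3 counts were treated as the floor, which covers counting error only, since amplified reads are not independent molecules. The edgeR tests were also run on simulated data, whose results are not given here. No batch within a dataset is named, so none was fitted.

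All 31 genes are named by role, and given sample by sample are Srebf1, Srebf2, Scap, Insig1, Insig2, Sqle, Acaca and Elovl6 and any gene with Padj below 0.1, unadjusted P below 0.05 or separate groups over all 10 samples; Scd2, Fads1, Fads2 and Nsdhl were added after their values were seen. Promoters were to be shown for genes of that first set with the sterol core, of which there were none. The genes, lists and tests were chosen with earlier results of these data known.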

Additional observations from a re-analysis of the deposited data

Results flagged for a closer look

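In groups of 5, the sample furthest from the rest was compared with the others by Dixon's criterion (gap over range above 0.71) for each of the 31 genes in each of the 4 groups. Of these 124 groups 12 met it. Chance gives about 1 in 20 for independent groups of normally distributed values. The groups here share samples and their CPM need not be normal, so the count cannot be read as an excess over chance. At 2 days the single highest vehicle sample stood apart for Sc5d (53.9 CPM, the others up to 42.9), for Scd2 (2920 CPM, the others up to 2041), for Elovl6 (101 CPM, the others up to 64.7) and for Stard4 (86.4 CPM, the others up to 50.4), and the highest Cort sample for Dhcr7 (58.3 CPM, the others up to 34.0). The Scd2 sample was C07, and those of Elovl6 and Stard4 were C09, both left out by the study.

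At 4 weeks the highest vehicle sample stood apart for Mvk (25.7 CPM, the others up to 3.67), for Mvd (19.7 CPM, the others up to 2.69), for Fdps (2.93 CPM, the others up to 0.804) and for Srebf2 (293 CPM, the others up to 111). The highest Cort sample stood apart for Mvk (29.9 CPM, the others up to 8.25), for Fdps (34.9 CPM, the others up to 2.62) and for Srebf1 (280.0 CPM, the others up to 77.8). The samples of Fdps and the vehicle sample of Srebf2 were among those left out, whereas the Srebf1 sample, C10, was kept. No gene passed the adjusted test for a different Cort effect at 4 weeks than at 2 days.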

How the results depend on the processing

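The count of examined genes with Padj below 0.1 was 0 in each comparison under every alternative. The alternatives were upper quartile scaling, scaling by the total alone, DESeq2, no low-count filter and a minimum of 10 counts per sample. All 10 samples were also used, and each of the 7 kept samples was left out in turn. Over all genes tested that count was 8 at 2 days, 5 at 4 weeks and 2 for the difference between datasets. Under DESeq2 it was 54, 43 and 39, and over all samples 2, 1 and 0. At unadjusted P below 0.05 the count of examined genes at 2 days was 2. It became 3 with no low-count filter and over all 10 samples. It ranged from 1 to 4 when 1 sample was left out (1 without C02, C05 or C10, 4 without C06). At 4 weeks it was 0 and became 1 under both scalings, DESeq2 and both filters, 2 over all 10 samples, and 0 to 1 with 1 sample left out (1 without C02, C04 or C07). For the difference between datasets it was 0 and became 1 under both scalings, no filter and all samples. With 1 sample left out it was 0 to 2 (2 without C07 of the 4 week dataset). Over all genes tested the counts at that P also moved with the setting. At 2 days they were 735 of 12309 in the main fit, 870 of 12309 under DESeq2 and 633 of 11983 over all samples. In the same order they were 550 of 11211, 786 of 11211 and 509 of 10398 at 4 weeks. For the difference they were 829 of 12777, 986 of 12777 and 779 of 12512. The other alternatives have no such counts here, so a changed count cannot be read as a shift of the examined genes. Their median at 4 weeks, -0.15, was 0.10 over all 10 samples, and that of the difference between datasets, -0.05, ranged from -0.20 to 0.14. At 2 days Elovl6 kept P below 0.05 in 12 of 13 alternatives (log2 0.53 to 0.65, Padj 0.317 to 0.999, lost without C05) and Srebf1 in 8 of 13 (-1.24 to -0.24, Padj 0.434 to 0.999); at 4 weeks Sqle had P below 0.05 in 8 of 13 (-1.02 to -0.44, Padj 0.674 to 1.0).

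Of the 29 genes, 14 at 2 days, 18 at 4 weeks and 17 in the difference between datasets changed sign under at least 1 alternative, and the values here are those of genes given sample by sample and of Mvd. Among these, over all samples the sign turned at 2 days for Sqle (0.16) and Insig1 (-0.21), at 4 weeks for Srebf2 (-0.34) and Scap (0.18), and in the difference between datasets for Fads1 (0.11), Srebf2 (-0.23), Insig1 (0.0028) and Insig2 (0.026). Srebf2 at 4 weeks was -0.050 under upper quartile scaling and -0.079 without scaling, where Elovl6 in the difference was -0.0040, and Fads1 was 0.012 with no filter. With 1 sample left out, their ranges that crossed 0 were, at 2 days, Fads1 -0.18 to 0.018, Insig1 -0.081 to 0.082, Scap -0.022 to 0.18, Sqle -0.10 to 0.033 and Srebf2 -0.30 to 0.064. At 4 weeks they were Acaca -0.15 to 0.40, Fads1 -0.30 to 0.025, Insig2 -0.011 to 0.94, Mvd -1.68 to 1.36, Scap -0.70 to 0.48, Srebf1 -0.45 to 1.11 and Srebf2 -0.65 to 0.27. In the difference they were Elovl6 -0.27 to 0.43, Fads1 -0.19 to 0.14, Insig2 -0.41 to 0.54, Mvd -1.35 to 2.19, Scap -0.81 to 0.37 and Srebf2 -0.55 to 0.35. None of these differences passed a threshold, and the cause was not tested. Mvd missed the filter over all 10 samples at 4 weeks. No paired analysis was possible because the columns carry no replicate number shared between the groups. With 3 against 4 samples the exact test cannot go below 0.0571.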
